A study of Mus musculus with 4 samples.

Results

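The Rab family comprises small GTPases of membrane traffic. A Rab protein cycles between a GTP-bound form, which sits on a membrane and recruits effectors such as tethers and motor adaptors, and a GDP-bound form, which is held in the cytosol. Each family member marks its own set of compartments, and pigment cells use several of them to build melanosomes, the lysosome-related organelles that hold melanin, and to move them along microtubules and actin. All protein-coding genes of the mouse annotation whose symbol is Rab followed by a number, with at most 1 further letter and 1 further digit, were taken, which gave 59 of 21887 genes. The genes were selected on their symbols. Their regions were chosen by the presence of a peak in any of the 4 lists within the gene body or within 10 kb of it on either side, here called the gene window, which gave 313 of 103629 merged regions. The numbers of regions are therefore a description of those lists. Of the 59 genes, 13 have a described role in melanosome biogenesis, transport or transfer and are called melanosome Rab genes, and the other 46 are set beside them. No region lay in the windows of more than one Rab gene, and for 231 of the 313 regions the nearest end of a protein-coding gene was that of a Rab gene.

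Open chromatin was mapped by ATAC-seq, in which the transposase Tn5 cuts and tags accessible DNA, in cultures of the mouse melanoma line B16F10. The 4 libraries were 2 of cells with a guide RNA named for Arid1a (sgArid1a) and 2 of cells with a scrambled one (sgScramble), and both groups share the cell line, the protocol and an input of 50000 cells per reaction. Arid1a encodes a subunit of the BAF (SWI/SNF) chromatin remodeller. Whether the cells were a clone or a pool, and their time after editing, is not stated in the labels, and peak lists cannot check the edit itself. The authors deposited a list of broad peaks per library, with 65353 and 71255 peaks for sgArid1a replicates 1 and 2, and 82319 and 85613 peaks for sgScramble replicates 1 and 2. Coordinates are those of the mouse build GRCm38 (mm10). Read counts are not part of these lists, so depth is unknown, and in bulk cells fewer open cells and less opening per cell cannot be told apart. All 7 melanocyte marker genes checked, among them Mitf, Tyr and Dct, had between 3 and 15 regions present in every list. Of 5 marker genes of other cell types, Epcam had no peak in any list, Ptprc, Cd3e and Krt5 had no region in all lists, and the endothelial gene Pecam1 had 5. Peaks in the windows of those 5 genes summed to 5753 and 8671 bp in sgArid1a libraries and 9065 and 8501 bp in sgScramble libraries, and their part in the results was not tested.

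The start sites of Rab genes were mostly open, in every library, whichever guide the cells carried. RefSeq start windows, which run from 250 bases before to 50 bases after a transcription start in GRCm38.p6, were matched for 48 of the 59 genes, with 60 windows in all. A peak lay over 49 of the 60 windows in all 4 lists (81.7%; 53.1% of 21263 windows of protein-coding genes), and over 10 of them in no list (16.7%; 43.3% of all windows). No Rab start open in both sgScramble libraries lacked a peak in both sgArid1a libraries, where 1.0% of 11588 such windows of all genes did. The Rab windows of this kind were those 49 and 1 more, too few to be told apart from that share. The remaining window, an internal start of Rab15, lacked a peak in sgArid1a replicate 1 alone. Peaks of sgArid1a replicate 2 and sgScramble replicates 1 and 2 reached only 119, 65 and 129 bp into it. In sgArid1a replicate 1 the same merged region held a peak of 1118 bp that stopped short of the window. Among melanosome Rab genes 12 of 13 matched windows were open in every list, and among the other genes 37 of 47.

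The start windows below were chosen because they show both states: a pair of starts of Rab27a and those of Rab32 and Rab7, all open in every list, and those of Rab17 and Rab39, open in none. Each is given 5′ to 3′ on the strand of the gene, and capitals mark matches to any of 4 motifs, searched on both strands: CACGTG, the E-box bound by MITF and other basic helix-loop-helix factors, CATGTG, a related E-box, TGANTCA, the AP-1 motif, and GGGCGG, the GC box.
Rab27a, first start (chr9:73044560-73044859, plus strand): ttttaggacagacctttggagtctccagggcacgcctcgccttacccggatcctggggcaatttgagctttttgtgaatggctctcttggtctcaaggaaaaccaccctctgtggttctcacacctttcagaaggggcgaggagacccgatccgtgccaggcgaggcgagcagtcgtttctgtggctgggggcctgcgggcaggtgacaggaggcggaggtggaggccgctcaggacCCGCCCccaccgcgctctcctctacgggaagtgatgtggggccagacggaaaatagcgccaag
Rab27a, internal start (chr9:73063898-73064197, plus strand): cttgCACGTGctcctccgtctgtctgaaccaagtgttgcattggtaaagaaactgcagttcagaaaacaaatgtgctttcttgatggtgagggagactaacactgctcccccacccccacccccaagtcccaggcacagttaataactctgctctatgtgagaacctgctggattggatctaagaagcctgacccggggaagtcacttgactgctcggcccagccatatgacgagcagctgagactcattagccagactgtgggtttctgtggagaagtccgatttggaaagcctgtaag
Rab32 (chr10:10558158-10558457, minus strand): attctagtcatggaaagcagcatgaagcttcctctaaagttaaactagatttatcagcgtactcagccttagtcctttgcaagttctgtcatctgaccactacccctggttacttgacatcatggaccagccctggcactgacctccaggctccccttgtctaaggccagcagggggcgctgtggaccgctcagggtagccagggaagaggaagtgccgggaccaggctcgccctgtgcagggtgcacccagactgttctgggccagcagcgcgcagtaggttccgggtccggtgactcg
Rab7, outer start (chr6:88045221-88045520, minus strand): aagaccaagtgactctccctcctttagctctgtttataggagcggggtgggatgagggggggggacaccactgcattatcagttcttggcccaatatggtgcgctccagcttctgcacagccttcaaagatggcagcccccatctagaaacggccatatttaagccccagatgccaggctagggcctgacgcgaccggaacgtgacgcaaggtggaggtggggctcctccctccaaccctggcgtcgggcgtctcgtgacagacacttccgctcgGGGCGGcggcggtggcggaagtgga
Rab17 (chr1:90967618-90967917, minus strand): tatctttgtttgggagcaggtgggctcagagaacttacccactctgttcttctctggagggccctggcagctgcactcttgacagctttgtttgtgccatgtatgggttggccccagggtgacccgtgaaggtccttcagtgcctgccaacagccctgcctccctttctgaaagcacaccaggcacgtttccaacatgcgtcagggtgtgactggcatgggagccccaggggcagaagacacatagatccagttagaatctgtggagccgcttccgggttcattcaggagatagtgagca
Rab39 (chr9:53706183-53706482, minus strand): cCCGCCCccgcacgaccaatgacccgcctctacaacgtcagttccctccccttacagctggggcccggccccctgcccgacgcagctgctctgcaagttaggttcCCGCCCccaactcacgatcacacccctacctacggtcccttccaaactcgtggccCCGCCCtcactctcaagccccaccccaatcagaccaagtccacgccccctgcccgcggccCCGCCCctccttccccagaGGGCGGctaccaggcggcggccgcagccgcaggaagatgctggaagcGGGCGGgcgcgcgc

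These letters show how unlike open starts of the family can be. The first start of Rab27a holds 18 CG dinucleotides and a GC box, while its internal start, with a peak of 1301 and 1319 bp in sgArid1a and 1338 and 1306 bp in sgScramble libraries, holds 6 CG dinucleotides, no GC box and a CACGTG near its outer edge. The Rab32 window holds no match to any of the 4 motifs and 10 CG dinucleotides. Over the family, open starts had a median of 23 CG dinucleotides (range 6 to 45) and starts without a peak had 7.5 (3 to 27), beside 22 and 3 among the open and unopened starts of all genes. Rab39 is the exception among the unopened Rab starts. Its window holds 27 CG dinucleotides and 6 GC boxes, and its gene, whose product acts in Golgi and endosomal traffic and autophagy, had no peak in its window in any list. CACGTG was found in 6 of the 60 Rab windows (10%; 7.84% of all windows), CATGTG in 6 (10%; 11.5%), TGANTCA in 3 (5%; 6.99%) and GGGCGG in 41 (68.3%; 46.2%). Open starts carry GC boxes more often in all genes: 75.5% of open Rab windows and 68.3% of open windows of all genes held one. A match describes the letters and not a bound site.

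**Figure D1:**
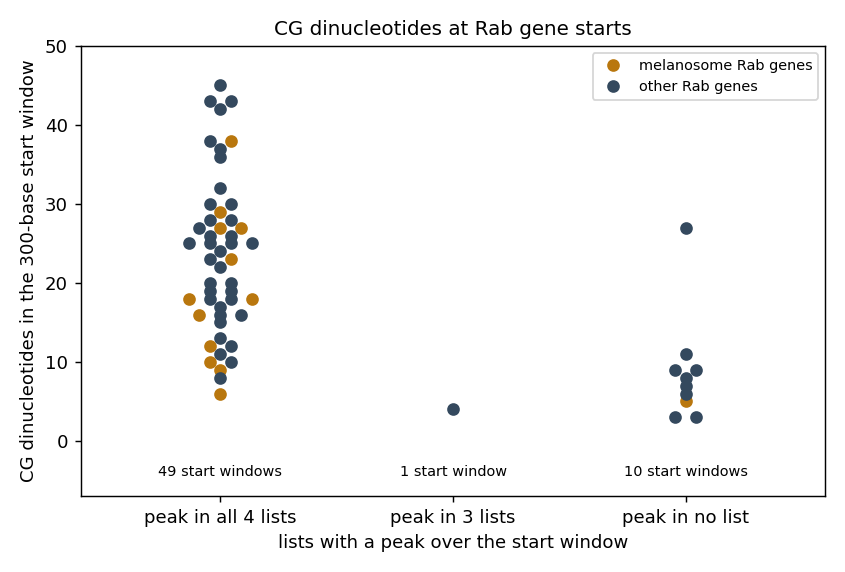
CG dinucleotides in each of the 60 RefSeq start windows of Rab genes (vertical axis, count per 300 bases), by the number of peak lists with a peak over the window (horizontal axis). Each point is a window; the 49 windows open in all lists range from 6 to 45, and of the 10 with no peak 9 lie at 11 or below and 1, at Rab39, lies at 27.

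Rab gene windows held less peak-covered DNA in sgArid1a than in sgScramble cells, mostly away from gene ends, much as other genes did. A gene end here is either end of any protein-coding gene, so internal starts can count as away from gene ends. Over the 313 regions, peaks covered 225843 and 259011 bp in sgArid1a libraries, against 291076 and 292729 bp in sgScramble libraries. The sgArid1a mean was 83.1% of the sgScramble mean, beside 79.2% over the 75484 regions near any protein-coding gene. Within 1 kb of a gene end the sgArid1a mean was 93.2% of the sgScramble mean (90.6% near all genes), and away from gene ends it was 72.4% (73.3% near all genes). Regions away from gene ends thus held 79.4% of the missing length (84.6% near all genes). Of the missing length over all 313 regions, 53.6% came from narrower peaks at the 208 regions present in all lists (43.7% near all genes). A further 20.9% came from 25 regions called in both sgScramble lists but 1 sgArid1a list (25.1% near all genes). The 14 regions missing from both sgArid1a lists held 17.1% (29.5% near all genes).

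Gene by gene, covered length was lower in both sgArid1a than in both sgScramble libraries at 36 of the 58 Rab genes with a peak (62.1%), where 53.9% of 17747 genes showed the same. It was higher in both sgArid1a libraries at 2 (3.45%; 3.17% of all genes), and at the other 20 the groups overlapped. The median Rab gene had 84.6% of its sgScramble length in sgArid1a cells, beside 83.7% over all genes with a peak. For each gene whose groups did not overlap, a two-sided exact permutation test gave p = 0.33, the smallest possible with 2 libraries against 2, so no gene can pass a threshold here. Rab windows were densely covered. Their median covered share was 7.55% in sgArid1a and 10.6% in sgScramble cells, beside 4.58% and 5.68% for all genes. These medians include genes without a peak, which were 1 of the 59 Rab genes and 4140 of the 21887 genes. The sgArid1a lists are shorter, and with lists cut to equal length 27 Rab genes were lower (46.6%; 38.8% of all genes) and 4 were higher (6.90%; 8.82% of all genes). Without sgArid1a replicate 1 there were 8 higher genes (13.8%; 16.7%), and without sgScramble replicate 1 there were 4 (6.90%; 7.42%).

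**Figure D2:**
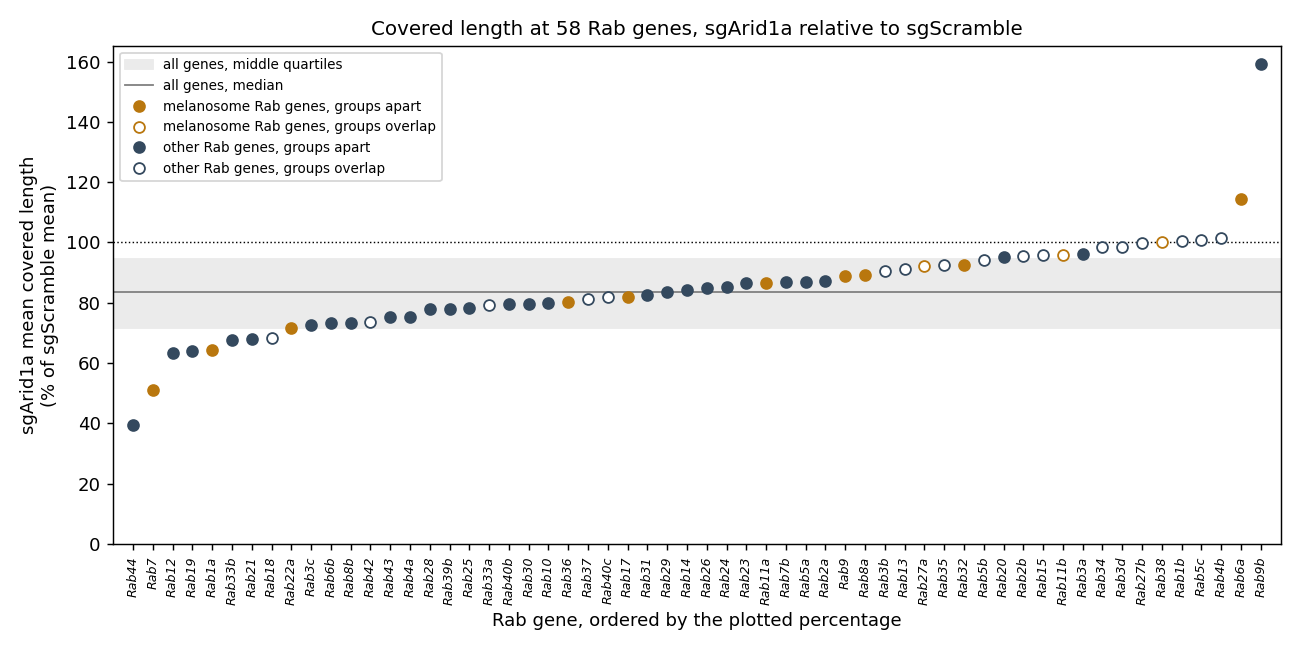
Mean covered length in sgArid1a libraries as a percentage of the sgScramble mean (vertical axis) for the 58 Rab genes with a peak, in rising order. Filled points are genes whose groups do not overlap, the grey line and band are the median (83.7%) and middle quartiles (71.5% to 94.7%) of all genes, and the Rab genes run from 39.6% at Rab44 to 159% at Rab9b.

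Whole regions went missing less often at Rab genes than the general share. Of the 247 Rab regions called in both sgScramble libraries, 14 had no peak in either sgArid1a library (5.67%), where 11.8% of the 53918 such regions near protein-coding genes were missing. Rab windows hold more gene-end regions than average, 35.1% against 20.5%, and these are seldom missing anywhere. By position, 2 of 103 Rab regions within 1 kb of a gene end were missing (1.94%; 3.08% near all genes) and 12 of 144 away from gene ends (8.33%; 14.8% near all genes). The 14 regions lay at 13 of the 58 genes with a region in both sgScramble lists (22.4%), where 30.1% of all genes had a missing region. The difference in share was not tested. The count was 35 without sgArid1a replicate 2 (14.2%; 21.6% near all genes), 34 without sgScramble replicate 1 (12.3%; 19.5%) and 27 without sgScramble replicate 2 (9.96%; 17.7%). Lists of equal length gave 7 of 215 (3.26%; 6.14%).

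The missing Rab regions were mostly weak ones. Strength was the authors' fold over background, given as a percentile within a library's own list and averaged over the sgScramble lists. The median missing Rab region stood at 10.2, against 57.8 for Rab regions present in all lists, and beside 24.9 and 64.3 near all genes. The strongest of them lay in Rab4a, a GTPase of rapid endosome recycling, at chr8:123811443-123811720, with percentiles of 76.9 and 61.9 in sgScramble replicates 1 and 2. The next lay in Rab8b, of exocytic traffic, at chr9:66844781-66845144 (51.7 and 58.7). The weakest lay beside Rab38 at chr7:88499889-88500585, at 1.37 and 0.783.

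**Figure D3:**
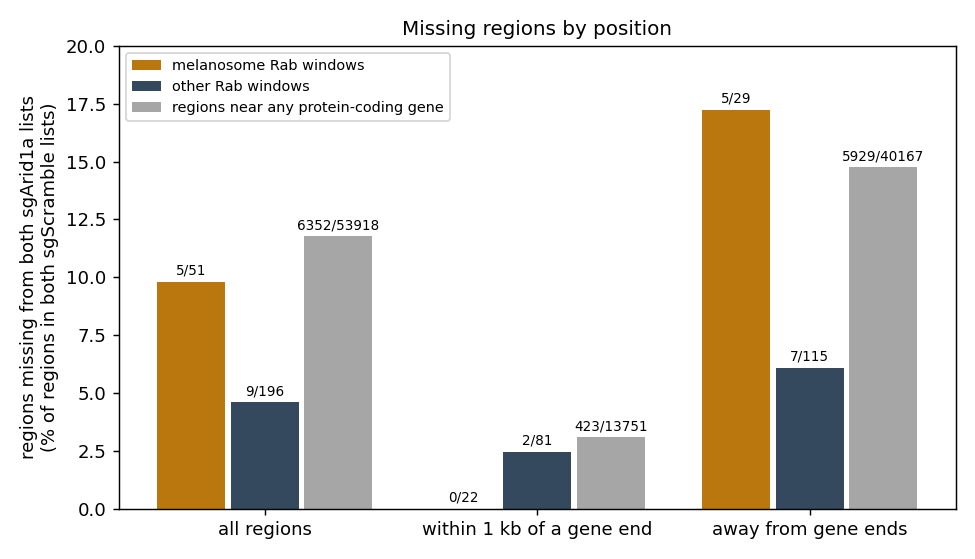
Percentage of regions in both sgScramble lists that were missing from both sgArid1a lists (vertical axis, bars from 0) for melanosome Rab windows, other Rab windows and regions near any protein-coding gene, over all regions and by distance from gene ends. Numbers above the bars are missing regions of regions in both sgScramble lists; the melanosome bar away from gene ends rests on 5 of 29 regions.

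In the 13 melanosome Rab windows, 5 of 51 regions were missing from both sgArid1a lists (9.80%), against 9 of 196 in the other Rab windows (4.59%), both beside 11.8% near all genes. All 5 lay away from gene ends, where the melanosome windows had 29 regions (17.2% missing; 14.8% near all genes). The remaining Rab windows had 7 of 115 missing there (6.09%). Covered length was lower in both sgArid1a libraries at 9 of the 13 melanosome genes (69.2%) and 27 of the 45 others with a peak (60%), beside 53.9% of all genes, and the medians were 88.9% and 83.7% of sgScramble, beside 83.7% for all genes. Within 1 kb of a gene end, the covered length of melanosome regions in sgArid1a cells was 98.5% of that in sgScramble cells (90.6% near all genes). It was 92.0% for the other Rab genes. Their lists by role, described below, lay on both sides of the melanosome value, from 78.6% (less studied members) to 105.7% (polarised transport and cilia). No test of the difference between melanosome and other genes was made, and the order of their missing shares turned at a stricter threshold, where peaks with a −log10 q of at least 5 gave 4 of 34 (11.8%) and 22 of 144 (15.3%). Without sgArid1a replicate 2 the melanosome count was 9 of 51 (17.65%; 21.6% near all genes). It was 8 of 55 without sgScramble replicate 1 (14.55%; 19.5%) and 8 of 59 without sgScramble replicate 2 (13.56%; 17.7%). Both Rab regions found in the sgArid1a lists but in neither sgScramble list lay in melanosome Rab genes, Rab27a and Rab6a (2 of 214 Rab regions in both sgArid1a lists, 0.935%; 1.33% near all genes). These were 2 of 58 genes, where 3.96% of all genes had such a region. They were weak, at mean percentiles of 6.17 and 11.7 within the sgArid1a lists, and their number depended on the lists. It was 8 of 210 with lists of equal length (3.81%; 4.36% near all genes), 11 without sgArid1a replicate 1 (4.35%; 7.86%), 6 without sgArid1a replicate 2 (2.63%; 7.01%) and 5 without sgScramble replicate 1 (2.35%; 2.71%).

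Rab27a tethers melanosomes to actin at the cell edge by recruiting melanophilin and myosin Va, and its loss gives the ashen coat colour in mice. The gene lies on chromosome 9 at 73044810 to 73097623, and its window held 10 regions, 7 of them in all lists. Peaks covered 7297 and 8430 bp in sgArid1a libraries, against 9271 and 7761 bp in sgScramble libraries. The groups overlapped, with a mean of 7863.5 ± 801 bp for sgArid1a and 8516 ± 1068 bp for sgScramble (SD, n = 2 each; exact permutation p = 0.667). The region called in sgArid1a cells alone lay in the gene body at chr9:73067149-73067430, with peaks of 282 and 249 bp at percentiles of 10.6 and 1.78. Gene-body regions were narrower in both sgArid1a libraries at chr9:73054787-73056093, where peaks covered 433 and 546 bp in sgArid1a and 1307 and 975 bp in sgScramble libraries. Past the far end, at chr9:73098018-73100470, the order was the other way, with 1665 and 2371 bp in sgArid1a and 1382 and 1008 bp in sgScramble libraries.

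Rab38 and its close relative Rab32 sort pigment enzymes to maturing melanosomes, and Rab38 is the gene of the chocolate coat colour in mice. Rab38 lies on chromosome 7 at 88430273 to 88491572 and had 13 regions, more than any other melanosome Rab gene. Its peaks covered 8692 and 12874 bp in sgArid1a libraries, against 11318 and 10209 bp in sgScramble libraries. The sgArid1a libraries lay on either side of the sgScramble libraries, so no direction can be given. With lists of equal length Rab38 was at 170% of sgScramble, against 100.2% with the full lists. A region in the gene body at chr7:88442861-88445875 was broader in sgArid1a cells, with 2045 and 2576 bp in sgArid1a and 1172 and 1731 bp in sgScramble libraries. A region called in sgArid1a replicate 2 alone added 1383 bp to that library. Many Rab38 regions were wide but weak: at chr7:88482105-88484142 peaks covered 1600 and 1968 bp in sgArid1a and 1893 and 1942 bp in sgScramble libraries, at percentiles of 18.2, 4.66, 6.71 and 9.21 in the same order. Rab32, on chromosome 10 at 10545039 to 10558207, had a region at each end of the gene, each present in all lists. Its peaks covered 3091 and 3177 bp in sgArid1a and 3414 and 3349 bp in sgScramble libraries, so the sgArid1a libraries were both lower, at 92.7% of the sgScramble mean.

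**Figure D4:**
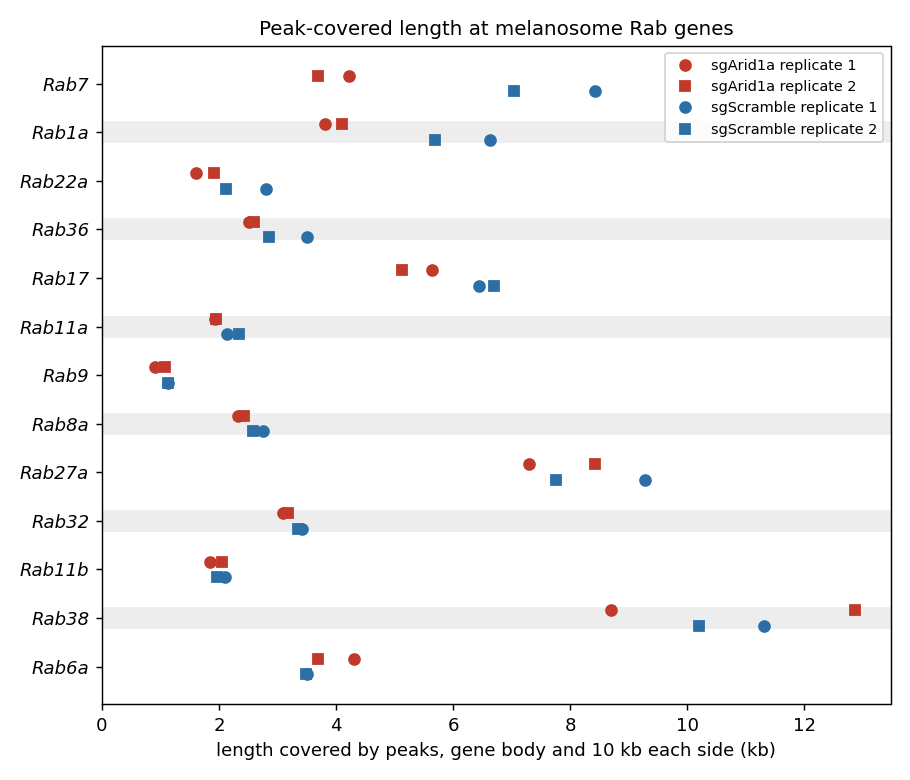
Length covered by peaks in the window of each melanosome Rab gene (horizontal axis, kb), for every library; sgArid1a is plotted above sgScramble within each gene. The groups are farthest apart at Rab7 and Rab1a, overlap at Rab27a, Rab38 and Rab11b, and at Rab6a both sgArid1a libraries lie above both sgScramble libraries.

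Rab7, which drives traffic to late endosomes and lysosomes and also the transport of melanosomes, had the lowest relative length of the melanosome genes with the full lists and the 10 kb window. The gene lies on chromosome 6 at 87999106 to 88045270. Peaks covered 4215 and 3694 bp in sgArid1a libraries, against 8418 and 7044 bp in sgScramble libraries, so the sgArid1a mean was 51.2% of the sgScramble mean. It was 74.8% with lists of equal length, where Rab1a was lower (64.7%). With a −log10 q of at least 5 it was 87.7%. There Rab17 (73.4%), Rab27a (77.7%), Rab6a (81.0%), Rab1a (84.05%) and Rab8a (86.5%) were lower. The start region whose outer window is printed above did not share in this, with 1305 and 1430 bp in sgArid1a and 1409 and 1429 bp in sgScramble libraries. The difference lay in the gene body. At chr6:88026577-88029113 peaks covered 431 and 343 bp in sgArid1a and 1982 and 1837 bp in sgScramble libraries, and at chr6:88033138-88034677 there was no peak in sgArid1a and 1370 and 1530 bp of peaks in sgScramble libraries. These body regions were broad and weak, with a mean sgScramble percentile of 6.06 at the narrowed region and 4.55 at the missing one.

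Rab1a, of traffic from the endoplasmic reticulum to the Golgi and of outward melanosome movement, showed the same layout. Its peaks covered 3806 and 4102 bp in sgArid1a and 6639 and 5684 bp in sgScramble libraries (64.2%). The start region was alike, with 1358 and 1354 bp in sgArid1a and 1379 and 1358 bp in sgScramble libraries. A gene-body region at chr11:20214701-20216687 was covered over 238 and 290 bp in sgArid1a and 1957 and 1004 bp in sgScramble libraries. In Rab22a, of recycling endosomes that supply melanosomes, peaks covered 1604 and 1918 bp in sgArid1a and 2797 and 2113 bp in sgScramble libraries (71.7%), and a gene-body region at chr2:173691546-173691996 was missing. With lists of equal length Rab22a turned to 106%.

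**Figure D5:**
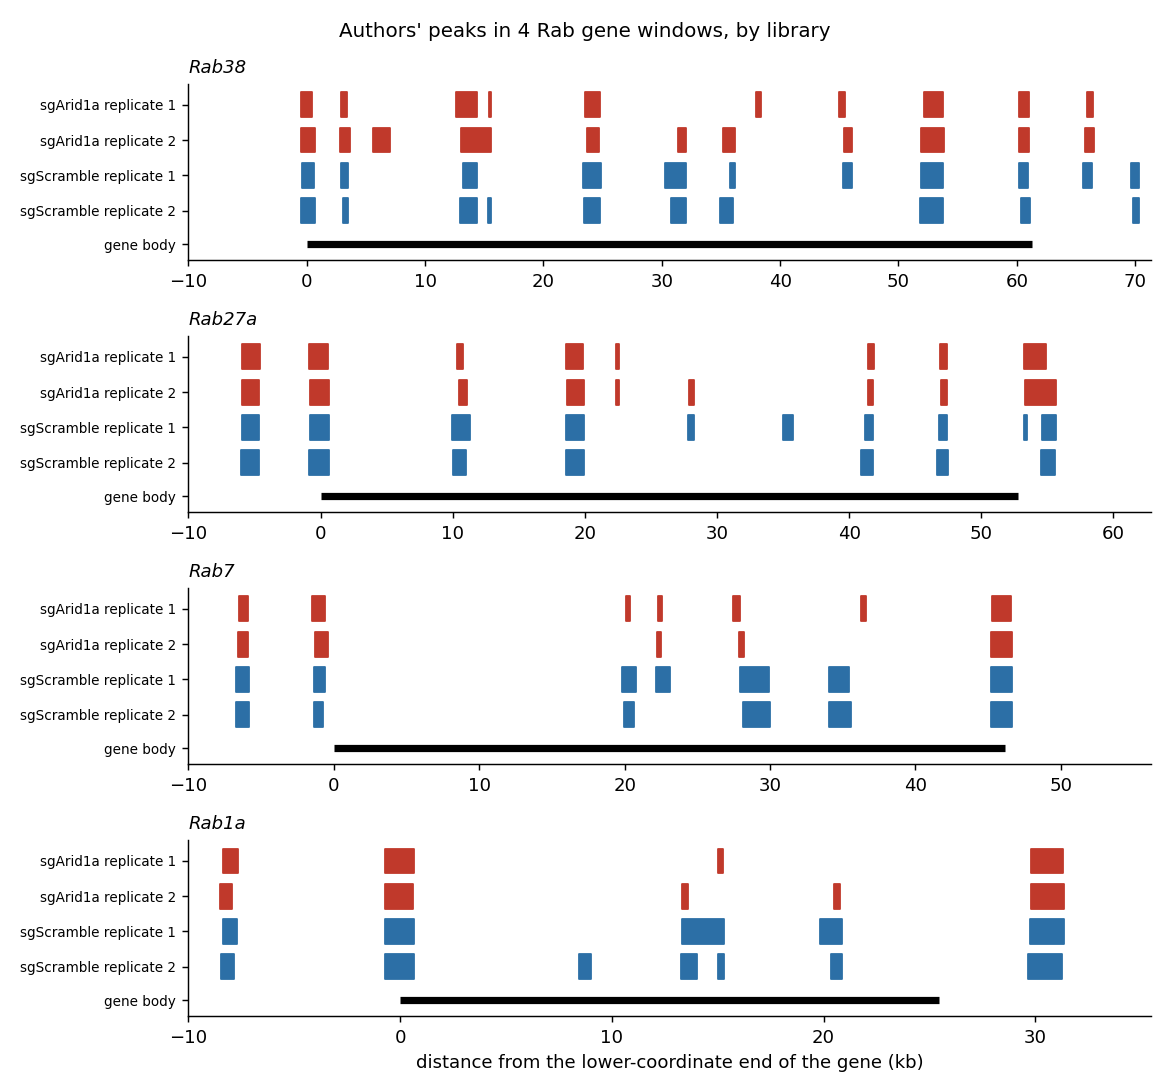
The authors' peaks in each library in the windows of Rab38, Rab27a, Rab7 and Rab1a (horizontal axis, kb from the lower-coordinate end of the gene; black bar, gene body). The start of Rab7 is at its right end and that of Rab1a at its left; these start peaks have like widths in all libraries. Several gene-body peaks of Rab7 and Rab1a are narrower or absent in sgArid1a libraries, while Rab7 also has a gene-body peak in sgArid1a replicate 1 alone.

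The remaining melanosome genes differed less with the full lists and the 10 kb window. Rab36, of inward melanosome transport, had 2506 and 2600 bp covered in sgArid1a and 3496 and 2862 bp in sgScramble libraries (80.3%), and a weak gene-body region was missing. With a window of 2 kb, or nearest-end assignment, Rab36 was at 50.7%. Rab17, of melanosome release, lies beside Mlph, the melanophilin gene, and 2 of its 6 regions lie nearer to Mlph. Its peaks covered 5639 and 5133 bp in sgArid1a and 6444 and 6693 bp in sgScramble libraries (82.0%). Most of the difference lay in a region just outside the gene, at chr1:90955668-90957317, where peaks covered 600 and 773 bp in sgArid1a and 1569 and 1650 bp in sgScramble libraries. A gene-body region at chr1:90963091-90963562 was missing, with 465 and 461 bp in sgScramble libraries, at percentiles of 29.1 and 33.4. Rab17 was at 60.4% with a window of 2 kb, 68.7% with nearest-end assignment and 92.3% with lists of equal length. Although the start window printed above held no peak, 17.1% of the Rab17 window was covered in sgArid1a and 20.8% in sgScramble cells, above the family medians. Rab11a (86.7%), a recycling endosome GTPase, Rab9 (88.9%), of endosome to Golgi traffic, and Rab8a (89.3%), of exocytosis, were each lower in both sgArid1a libraries with no region missing. At Rab11b, which is needed for melanin transfer, the groups overlapped, with 1847 and 2050 bp in sgArid1a and 2100 and 1966 bp in sgScramble libraries.

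Rab6a, which sends Golgi cargo to melanosomes, was higher in both sgArid1a libraries. Its peaks covered 4311 and 3692 bp in sgArid1a, against 3512 and 3493 bp in sgScramble libraries, or 114%. The excess held the 765 and 349 bp of the region at chr7:100621743-100622527, which was in neither sgScramble list. The direction turned at a stricter threshold, where peaks with a −log10 q of at least 5 gave 81.0%. It also turned with a window of 50 kb (96.9%) and when regions were assigned to the nearest gene end (92.5%).

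Among the other 46 genes, 5 encode GTPases of the late endosome, lysosome and autophagy. Of these 4 were lower in both sgArid1a libraries and Rab9b, a relative of Rab9, was higher, beside 53.9% lower and 3.17% higher among all genes. Rab9b had 599 and 1090 bp covered in sgArid1a and 502 and 559 bp in sgScramble libraries, at the X chromosome positions 136858147 to 136868556. Its start region was wider in both sgArid1a libraries, with 599 and 791 bp in sgArid1a against 502 and 559 bp in sgScramble libraries, and a 299 bp peak in sgArid1a replicate 2 made up the rest. Its relative length of 159% was 113% without sgArid1a replicate 2 and 100.6% with a window of 50 kb. Rab12, which directs endosomes to lysosomes, was lowest of this list, with 3563 and 3161 bp in sgArid1a and 5329 and 5303 bp in sgScramble libraries (63.2%). With lists of equal length Rab12 was at 91.85%. It lacked a gene-body region of chr17:66507337-66508333 in both sgArid1a lists.

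In the list of endoplasmic reticulum and Golgi GTPases 7 of the 12 genes with a peak were lower in both sgArid1a libraries and 0 were higher (58.3% lower; 53.9% of all genes), with a median of 78.6% beside 83.7% for all genes. The largest relative differences were at Rab19, with 1886 and 2851 bp in sgArid1a and 3520 and 3880 bp in sgScramble libraries (64.0%), and at Rab33b, a Golgi GTPase that binds the autophagy machinery. With a window of 2 kb, or with regions assigned to the nearest gene end, Rab19 was at 26.9%. Peaks covered 5185 and 7127 bp of the Rab33b window in sgArid1a and 8487 and 9696 bp in sgScramble libraries, or 19.1% and 28.2% of it. Its start region was itself narrower, with 1145 and 2040 bp in sgArid1a against 3548 and 3545 bp in sgScramble libraries. A region inside Rab43, of the Golgi, was the single one missing from this list.

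The early and recycling endosome list had 7 of 12 genes lower (58.3%; 53.9% of all genes) and 0 higher, with a median of 89.7% beside 83.7% for all genes. Rab21, of integrin uptake, had 3698 and 3157 bp covered in sgArid1a and 5773 and 4299 bp in sgScramble libraries (68.1%). With lists of equal length it was at 90.59%. Missing regions lay at Rab21, Rab4a and Rab14, of Golgi to endosome traffic. Rab14 stood at 84.1% but turned to 106% with lists of equal length and to 110% with a window of 2 kb. Of 5 genes for polarised transport and cilia 4 were lower (80%; 53.9% of all genes), and Rab8b, with 7268 and 9467 bp in sgArid1a and 10783 and 12024 bp in sgScramble libraries (73.4%), was the 1 with a missing region. Rab8b was at 43.3% when peaks needed a −log10 q of at least 5. Of 7 genes for regulated secretion 3 were lower (42.9%; 53.9% of all genes), 0 were higher and no region was missing.

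Rab44, a large atypical member with EF-hand motifs, had the lowest relative length of the family with the full lists and the 10 kb window. The gene lies on chromosome 17 at 29114128 to 29148980, and peaks in its window covered 917 and 1998 bp in sgArid1a, against 3885 and 3485 bp in sgScramble libraries, or 39.6%. This value was 24.9% without sgArid1a replicate 2, 61.0% with lists of equal length and 69.8% with a window of 50 kb, where Rab36 (66.6%) and Rab7 (68.7%) were lower. Rab44 was the 1 Rab gene with 2 missing regions, at chr17:29135998-29136511 in the gene body and chr17:29156191-29157042 near Cpne5. Rab42, a little-studied member, had 1 missing region near Taf12, and its groups overlapped, with 2075 and 3355 bp in sgArid1a and 3230 and 4154 bp in sgScramble libraries (73.5%). With a window of 2 kb, or nearest-end assignment, no sgArid1a peak remained at Rab42.

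Genes that act on or with Rab proteins were measured the same way. Rab proteins carry lipid groups attached by a geranylgeranyl transferase and are returned to membranes by GDI proteins. Of 7 such genes, 3 were lower in both sgArid1a libraries and 0 higher (median 90.2%), and 2 of their 15 regions were missing (13.3%). Rabif, a guanine nucleotide-releasing chaperone, had 1142 and 1245 bp in sgArid1a and 2294 and 2560 bp in sgScramble libraries (49.2%). Of 10 partners of the melanosome Rab proteins, 7 were lower and 0 higher (median 77.8%), and 8 of 59 regions were missing (13.6%), 3 of them at Sytl2, an effector of Rab27a. At Myo5a, the myosin that Rab27a and melanophilin recruit, peaks covered 8972 and 9988 bp in sgArid1a and 14067 and 13613 bp in sgScramble libraries (68.5%). At Mlph they covered 7352 and 7642 bp in sgArid1a and 8877 and 9080 bp in sgScramble libraries (83.5%). The Mlph window overlaps that of Rab17, so the 2 values are not separate. Both windows hold the region at chr1:90955668-90957317, with 600 and 773 bp in sgArid1a and 1569 and 1650 bp in sgScramble libraries. Hps1 and Hps4 encode the BLOC-3 complex, the exchange factor of Rab32 and Rab38. Hps4 was at 66.6% and lower in both sgArid1a libraries, and at Hps1 (97.8%) the groups overlapped. Both lists are set beside the 53.9% of all genes that were lower and the 11.8% of regions that were missing.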

How the data were processed

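The authors deposited 1 broad peak list per library. Each peak carries a score, a fold (ratio) over background, and a −log10 p-value and −log10 q-value, all as deposited; the lowest −log10 q was just above 1. The submitters' processing notes name STAR 2.5.3a, HOMER and the builds GRCm38 and mm10, with no roles; the sources used here name no peak caller or Tn5 shift. Groups and replicate numbers come from the titles, and nothing says that replicates were separate cultures, so their spread may be technical.

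Peaks on chromosomes 1 to 19, X and Y overlapping by at least 1 bp were merged. Fold was used as a percentile within a list. Covered length was clipped to the gene window for single genes, and summed over whole regions for sets. Genes and start windows came from RefSeq tables of GRCm38.p6. Library means were compared by an exact permutation test. Gene lists and members were chosen with earlier results of these data known. The genes named were the melanosome list and, among the others, the 5 with the most missing regions (with ties), the 5 with the largest relative difference each way where groups did not overlap, and those with no peak; Mlph, Myo5a, Sytl2, Rabif, Hps1 and Hps4 were chosen after their values were seen. The alternatives were lists of equal length, a stricter q, wider merging, a 50% overlap, a 500 bp minimum, other windows and assignment, leaving out each library, and the replicate number as a block. The steps were checked on simulated lists. Python 3.11.15, numpy 2.4.6, pandas 2.3.3 and matplotlib 3.10.9 were used.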

Additional observations from a re-analysis of the deposited data

How the results depend on the processing

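The counts of missing regions depended on the window, the lists and the thresholds. Missing Rab regions numbered 14, and 7 with lists of equal length, 26 with a −log10 q of at least 5, 26 with a 50% overlap without merging and 53 with a window of 50 kb; leaving out 1 library gave 19 to 35. For melanosome Rab genes the count was 5, and 3, 8, 11 and 11 with lists of equal length, peaks of at least 500 bp, 50% overlap and the 50 kb window, and 6 to 9 without 1 library. For the other Rab genes it was 9, and 4, 22, 15 and 42 with lists of equal length, the stricter q, 50% overlap and the 50 kb window, and 13 to 26 without 1 library. The missing share of all Rab regions lay below that near all genes in every setting but the 50% overlap, where the share near all genes was not computed. Regions found in sgArid1a lists alone numbered 2 (0.935%; 1.33% near all genes), and 8 with lists of equal length (3.81%; 4.36%). They were 5 with the 50 kb window (1.06%; 1.37%), 1 with nearest-end assignment (0.568%; 1.37%) and 1 with the stricter q (0.730%; 0.274%). A 50% overlap gave 6 (2.90%), and leaving out 1 library gave 3 to 11 (1.395% to 4.35%; 2.71% to 7.86%). Rab genes with less covered length in sgArid1a numbered 36 (62.1%; 53.9% of all genes). Over these settings they ran from 27 with lists of equal length (46.6%; 38.8%) to 52 without sgArid1a replicate 2 (89.7%; 78.5%). With the 50 kb window they were 46 of 59 (78.0%; 65.3%), and leaving out 1 library gave 37 to 52 (63.8% to 89.7%; 60.6% to 78.5%). Rab genes with more covered length numbered 2 (3.45%; 3.17% of all genes), and 4 with lists of equal length (6.90%; 8.82%). They were 1 with peaks of at least 500 bp (1.72%; 3.03%) and 4 with a window of 2 kb (6.90%; 3.97%). There were 0 with the 50 kb window (1.70% of all genes) and 0 with the stricter q (1.87%). Leaving out 1 library gave 3 to 8 (5.17% to 13.8%; 7.42% to 16.7%).

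With the replicate number as a block, 40 genes were lower and 2 higher within both same-numbered pairs, and region counts did not move, since their definition already asks this of both pairs. Nothing in the labels says that numbers pair libraries, and deviations of same-numbered libraries correlated at r = 0.0659 over 17747 genes, which are not independent. Among named genes whose groups did not overlap, the direction turned in 8 recomputed lengths, at Rab14 (106%, 107% and 110% with lists of equal length, nearest-end assignment and a 2 kb window), Rab22a (106% with lists of equal length), Rab36 (100.3% with the stricter q) and Rab6a (92.5%, 96.9% and 81.0% with nearest-end assignment, the 50 kb window and the stricter q). Rab11b, Rab27a and Rab38, whose groups overlapped, also lay on both sides of 100% over the settings, between 87.3% and 103%, 77.7% and 101.4%, and 80.8% and 170%. The cause was not tested. At the limit of the gene window, the outermost regions inside it lay 9897 bp from Rab20 and 9908 bp from Rab15, and the next outside lay 10130 bp from Rab29 and 10153 bp from Rab5c, both in all lists. Without read counts, a missing peak cannot be told apart from one just under the calling threshold.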

Other observations

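Rab3c and Rab31 were chosen after their values were seen. Rab3c, a GTPase of regulated secretion best known from neurons, had no peak over its start window in any list, yet 7 gene-body regions, 6 of them in all lists. A region 214 bp inside the far end of the gene, at chr13:110054401-110055111, stood at percentiles of 44.1 and 21.9 within the sgArid1a lists and 98.4 and 95.7 within the sgScramble lists. Peaks covered 306 and 307 bp of it in sgArid1a and 586 and 695 bp in sgScramble libraries. Rab31, of endosomal and Golgi traffic, had 15 regions, the most of the 59 genes, of which 8 were in all lists. Peaks in its window covered 8169 and 9939 bp in sgArid1a and 10191 and 11740 bp in sgScramble libraries (82.6%). A gene-body region at chr17:65756930-65757866 was covered over 363 and 390 bp in sgArid1a and 798 and 823 bp in sgScramble libraries.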
